A study of Coturnix japonica with 19 samples.

Results

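The pituitary glands of 10 adult male Japanese quail were compared between a long and a short photoperiod, 16 h of light a day (16L) against 8 h (8L), across all genes with enough counts. The birds were chosen by their labels alone. They are 10 of the 19 libraries of the study, the other 9 coming from juveniles at posthatch day 10, and each library holds the RNA of 1 bird, 5 in each adult group. All adults came into the study at 5 weeks of age, had 2 weeks under a long photoperiod and then went to short days, under which their gonads were allowed to regress. The 8L birds were collected after 8 weeks of short days. The 16L birds were moved from short days to a long photoperiod and collected after 8 weeks of it, so that in these birds photoperiod, light history and age at collection cannot be told apart. No strain is named and no bird carried a transgene or received an agent. The stalk was cut at dissection and the pars tuberalis stayed with the brain, so the tissue was mainly pars distalis. Polyadenylated RNA was copied to cDNA, amplified by PCR and read as long reads on an Oxford Nanopore GridION. The values are estimated counts per transcript, summed here for each gene symbol.

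The pars distalis holds several endocrine cell types that can be told by their products. Gonadotrophs make the gonadotropins, which pair a specific beta chain (FSHB for follicle-stimulating hormone) with a common alpha chain (CGA). Thyrotrophs use the same alpha chain with TSHB, lactotrophs make prolactin (PRL), somatotrophs growth hormone (GH) and corticotrophs the precursor POMC. In quail and other seasonally breeding birds, long days act through the pars tuberalis and thyroid hormone in the hypothalamus to raise gonadotropin-releasing hormone, and the gonads then grow. Since whole glands were read, fewer cells of a type and less RNA per cell cannot be told apart.

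Library totals ran from 128509 counts (8L replicate 2) to 4796665 (16L replicate 3), and a single count was worth between 0.231 and 6.95 counts per 1000000 (CPM, over the library total scaled by its TMM factor). The mean log2 total was 20.6 ± 0.92 (SD, n = 5) in 16L and 19.5 ± 1.52 in 8L, a difference of 1.12 with p = 0.214 in an exact two-sided permutation test, where the smallest possible p is 0.00794. Without 8L replicate 2 this difference was 0.502, and without 16L replicate 3 it was 0.720. Families of gene copies whose counts could not be told apart, 33 genes in 2 families, took between 13.4% (8L replicate 4) and 53.4% (16L replicate 2) of a library, with no detectable difference between the groups (8.06 percentage points, exact permutation p = 0.286). That difference was 12.3 points without 16L replicate 1 (exact permutation p = 0.0556), 3.02 without 16L replicate 2 and 5.10 without 8L replicate 4. The 8L replicate 2 library stood apart, with 7561 genes counted against 13055 to 16571 in the others and a median Spearman correlation with them of 0.562 against 0.740 to 0.836. It held no count for 2173 of the genes tested (29.1%). Counts of 0 there allow levels of up to 20.9 CPM. The defining genes of the labelled tissue were present in every bird, with GH, POMC, PRL and CGA between 1200 and 24797 CPM and the pituitary transcription factor POU1F1 between 378 and 824 CPM.

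A total of 7478 genes passed the filter on low counts out of 19028 with any count. With edgeR's quasi-likelihood test, 50 genes reached an unadjusted p under 0.01 (0.669% of the genes tested), fewer than the 74.8 that evenly spread p-values would give. Of these, 39 had a higher estimate in 16L (0.522%) and 11 a lower one (0.147%). At an unadjusted p under 0.05 there were 238 genes (3.18%), 145 higher and 93 lower. After Benjamini-Hochberg adjustment over all genes 2 passed 0.05 (0.0267%), both higher in 16L: the metallothionein MT3 and the neuropeptide precursor NTS. The median log2 fold change of all genes tested was 0.02. In 53 genes (0.709%) no bird of one group overlapped the other group, 43 of them higher (0.575%) and 10 lower (0.134%), and 25 of the 50 genes at p under 0.01 were among these. Without 8L replicate 2 the number at p under 0.01 was 78 of 7988 genes tested (51 higher and 27 lower), of which 43 were among the 50.

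**Figure D1:**
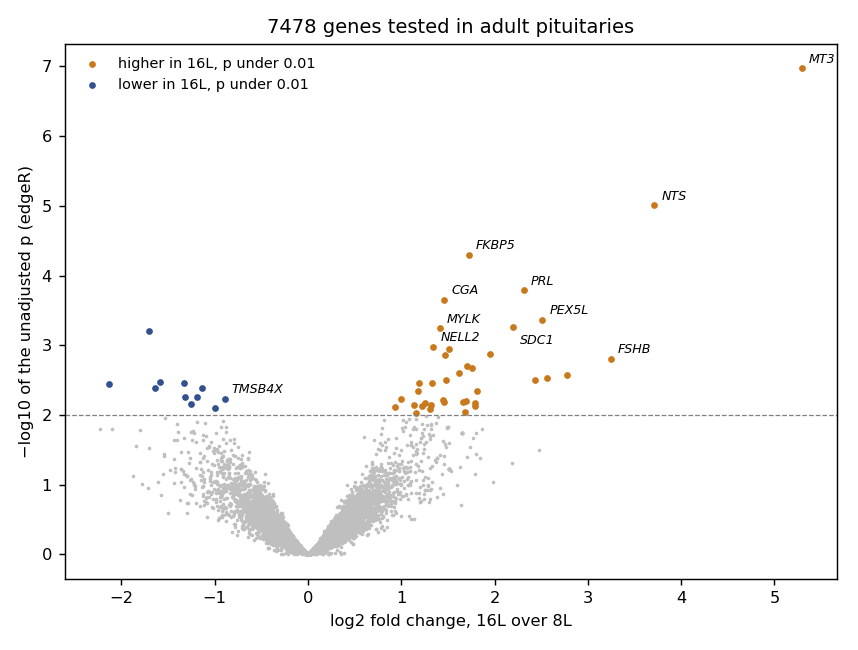
Each point is 1 of the 7478 genes tested in the 10 adult birds, placed by its log2 fold change of 16L over 8L (horizontal axis) and by the −log10 of its unadjusted edgeR p (vertical axis); the dashed line marks the threshold of 0.01. MT3 and NTS sit apart from all other genes at the upper right, and more of the coloured points lie on the side of 16L (39) than on that of 8L (11).

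MT3 was the gene with the smallest p. Metallothioneins are small cysteine-rich proteins that bind zinc and copper, and MT3 was first described in brain as a growth inhibitory factor. The 16L birds 1 to 5 stood at 101, 196, 234, 227 and 580 CPM. The 8L birds stood at 4.65, 0, 9.99, 5.31 and 8.73 CPM. The groups were far apart, since the lowest 16L bird lay about an order of magnitude above the highest 8L bird, although the 0 of 8L replicate 2 carries the wide limit given above. Over each group 2197 counts fell on MT3 in 16L and 35 in 8L. The mean was 267 ± 182 CPM (SD, n = 5) against 5.74 ± 3.92, and MT3 rose in 16L by a log2 fold change of 5.29 ± 0.55 (SE), or 39.2-fold, with an adjusted p of 7.94e-04 (edgeR). MT3 stayed past the threshold in all 24 alternatives run, with adjusted p-values up to 0.0214. It has a single listed transcript, so summing over transcripts does not touch its own counts, though it enters the library totals behind its CPM. With each gene represented by its most counted transcript the log2 fold change was 5.31.

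The other tested members of the zinc and copper list did not share this difference. MT3 alone among 11 tested members had a p under 0.05, 6 estimates were higher and 5 lower, and the median was 0.15 on the log2 scale against 0.02 for all genes. MTF1, the metal-responsive transcription factor that drives metallothionein genes, stood at 25.7 CPM in 16L and 26 in 8L. The zinc importer SLC39A10 had 54.4 CPM against 59.3. MT4, the other metallothionein with counts, was too low to be tested (131 counts over the 16L birds and 26 over the 8L birds), and its groups overlapped. More of its counts fell in 16L, as for MT3, but they are not scaled for depth. The mean log2 library total was 20.6 in 16L and 19.5 in 8L.

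NTS encodes the precursor of neurotensin and neuromedin N, peptides of brain, gut and pituitary. It stood at 79.8, 24.9, 21, 60.2 and 48.6 CPM in the 16L birds and at 1.16, 6.95, 3.63, 2.65 and 5.82 CPM in the 8L birds. No bird overlapped, and the lowest 16L bird lay 3 times as high as the highest 8L bird. That 8L bird is replicate 2, where 6.95 CPM is 1 count and even a count of 0 allows up to 20.9 CPM. The size of this gap is therefore not well measured. The mean was 46.9 ± 24.6 CPM (SD, n = 5) against 4.05 ± 2.35, a rise of 3.71 ± 0.56 (SE) on the log2 scale, or 13.1-fold, with an adjusted p of 0.0366 (edgeR). The counts behind it were low, 331 over the 16L birds and 17 over the 8L birds, and the call held in 14 of 24 alternatives. It was lost without 16L replicate 1 (adjusted p = 0.131), 4 (0.124) or 5 (0.117), and without 8L replicate 1 (0.126), 3 (0.152), 4 (0.140) or 5 (0.0677), with log2 fold changes between 3.40 and 4.12 in those fits. With the replicate number as a block its adjusted p was 0.583, with limma-voom 0.359 and with all 4 groups of the study in 1 fit 0.0954.

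Few other neuropeptide genes had enough counts to be read. Of 20 with a count in adults, 2 were tested, the other being NMS, the precursor of neuromedin S, at 17.4 CPM in 16L and 12.1 in 8L (log2 fold change 0.49). Neuropeptide Y (NPY) had 72 counts over the 16L birds and 7 over the 8L birds, and neuromedin U (NMU) had 73 and 4. Galanin (GAL) had 56 and 51. The groups overlapped for each of these 3 genes, which were chosen after their values were seen. Their counts are not scaled for depth, and the mean log2 library total was 20.6 in 16L and 19.5 in 8L. TRH, the thyrotropin-releasing hormone of the hypothalamus, had 1 count over the 10 birds and GNRH1 none.

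**Figure D2:**
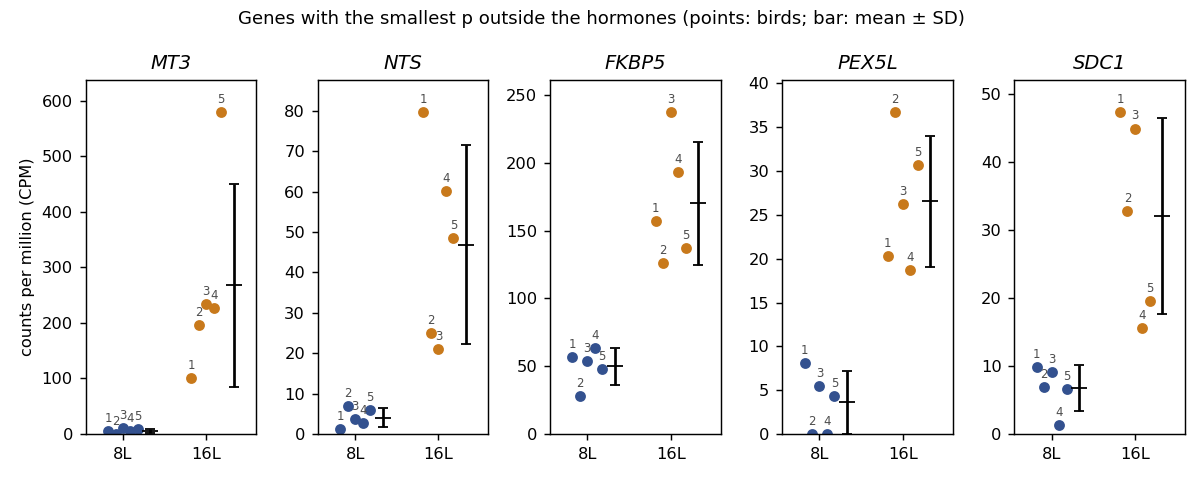
Levels in CPM (vertical axes, from 0) of MT3, NTS, FKBP5, PEX5L and SDC1 in each adult bird; points are birds numbered by replicate, with 8L on the left and 16L on the right of each panel, and bars give the mean ± SD. In all 5 genes every 16L bird lies above every 8L bird, and MT3 in 16L replicate 5 (580 CPM) lies well above the other 16L birds. A 0 in 8L replicate 2 allows up to 20.9 CPM, which is above PEX5L in 16L replicates 1 and 4.

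Among the hormone genes, the alpha chain, prolactin and the FSH beta chain had the highest estimates for 16L, and GH, POMC and TSHB differed by less than the spread between birds. None of the 6 passed the adjusted threshold, 3 had a p under 0.01, and the list's median log2 fold change was 0.99. LHB was not analysed here, and the study states that the quail reference genome lacks this gene. Summed over the 6 genes, hormone counts made up 39897 to 60562 CPM in the 16L birds and 13974 to 30500 CPM in the 8L birds, without overlap. CGA can enter this sum more than once, since its most counted transcript of 4 held 28.6% of its counts. PRL, GH and FSHB enter it over 1 transcript each. Between 16L replicate 2 and 8L replicate 5, the lowest and highest sums of their groups, the gap rested on CGA (24492 against 9126 CPM). PRL, GH and POMC were all lower in that 16L bird (5888, 2040 and 7331 CPM against 6172, 4348 and 10760). The lack of overlap thus depends on how CGA is counted, and the sum with CGA counted once was not tested.

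CGA stood at 22006, 24492, 19497, 21916 and 24564 CPM in the 16L birds. In the 8L birds it stood at 7563, 9207, 4750, 10297 and 9126 CPM. The 16L birds were tightly grouped, with a coefficient of variation of 9.39% against 26.3% in 8L, and every one of them lay well above all 8L birds. The log2 fold change was 1.46 ± 0.30 (SE), or 2.75-fold, with an adjusted p of 0.333 (edgeR). CGA has 4 listed transcripts, 3 of which held counts within 5% of one another, so its level is counted more than once, in both groups alike. Over its most counted transcript alone the log2 fold change was 1.44 (adjusted p = 0.307). Left without the near-identical gene copies, the same test gave an adjusted p of 0.0237, and DESeq2 gave 2.80e-05.

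PRL, the hormone of lactotrophs, was counted on a single transcript at 14713, 5888, 24797, 15244 and 18548 CPM in 16L and at 2796, 2733, 1200, 3024 and 6172 CPM in 8L. Only 16L replicate 2 fell inside the 8L range, below 8L replicate 5. The log2 fold change was 2.31 ± 0.46 (SE), or 4.97-fold, with an adjusted p of 0.302 (edgeR). Without 16L replicate 2, the library with the largest share of gene copies, the adjusted p was 0.0423 and the log2 fold change 2.55. DESeq2 gave 5.24e-04 and the fit without a filter 0.0475. These were the only 3 of 24 alternatives in which PRL passed 0.05.

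FSHB, the chain that sets the identity of follicle-stimulating hormone, had 64.0, 30.2, 97.3, 66.4 and 253 CPM in 16L and 1.16, 34.8, 1.82, 27.9 and 6.55 CPM in 8L. A single pair of birds overlapped, since 8L replicate 2 lay above 16L replicate 2, and the 8L value there rests on 1 library in which each count is worth 6.95 CPM. Coefficients of variation were 85.8% and 109%, the widest among the hormones. The log2 fold change of 3.25 ± 0.84 (SE) had an adjusted p of 0.833 (edgeR), against 0.0462 with DESeq2. FSHB passed 0.05 in that 1 of 24 alternatives only. Without 8L replicate 4 the log2 fold change was 4.22, and without 16L replicate 5 it was 2.60. The counts were 891 over the 16L birds and 39 over the 8L birds.

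The remaining hormones overlapped widely. GH ran from 1535 to 7264 CPM in 16L (median 3027) and from 1412 to 4348 in 8L (median 1728), a log2 fold change of 0.52 ± 0.47 (SE). POMC, the precursor of corticotropin and melanotropins, had means of 6976 ± 2643 CPM (SD, n = 5) and 6285 ± 3687, a log2 fold change of 0.15 ± 0.45. TSHB had 70.4 ± 30.9 CPM in 16L and 84.2 ± 55.8 in 8L, −0.33 ± 0.54 on the log2 scale. The 8L mean of TSHB includes a 0 in replicate 2, where a count of 0 allows up to 20.9 CPM. The 8L replicates 1, 3, 4 and 5 stood at 157, 89.0, 87.5 and 87.3 CPM. The sign of the POMC estimate turned to −0.08 without 8L replicate 2, and that of TSHB to 0.00 without 8L replicate 1.

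**Figure D3:**
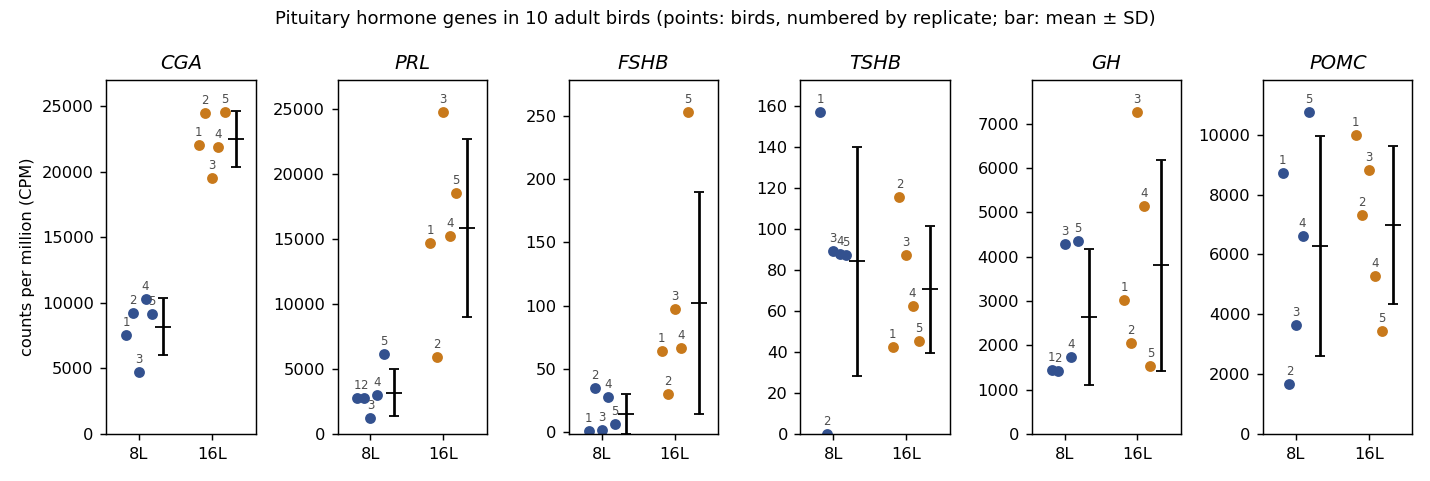
Levels in CPM (vertical axes, from 0 or just below) of 6 pituitary hormone genes in the 5 birds of each adult group; points are birds numbered by replicate and bars are the mean ± SD. The 16L and 8L birds are separate for CGA, overlap by 1 pair of birds for PRL and FSHB and lie over one another for TSHB, GH and POMC.

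FKBP5 was the third gene by p. It encodes a cochaperone of steroid receptors and is a well known target of glucocorticoids. Its levels were 157, 126, 237, 193 and 137 CPM in 16L and 56.4, 27.8, 53.6, 63.7 and 48.0 CPM in 8L. The groups were apart in every pair of birds, and the estimate was 1.72 ± 0.30 (SE) on the log2 scale, or 3.31-fold. The adjusted p was 0.126 over summed transcripts (edgeR) and 0.0163 over the most counted transcript, whose log2 fold change was 1.64. Of its 5 listed transcripts 4 held counts within 5% of the highest.

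All 5 tested members of the glucocorticoid response list had higher estimates, with a median log2 fold change of 0.69, and FKBP5 and SGK1 had p under 0.05. Among all genes tested, 3864 of 7478 had a higher estimate and 1.94% were higher at p under 0.05. SGK1, a kinase induced by glucocorticoids and mineralocorticoids, had means of 24.9 ± 8.17 CPM (SD, n = 5) and 9.20 ± 5.94 (log2 fold change 1.24 ± 0.46). PER2, which also belongs to the circadian clock, had 913 CPM in 16L and 562 in 8L (0.69). GLUL, glutamine synthetase, had 22.8 and 15 CPM (0.60), and CRISPLD2, a secreted protein, 13.3 and 7.24 CPM (0.65). Another 10 listed genes fell below the filter. Summed in each bird, the list made up 964 to 1692 CPM in 16L and 348 to 1120 CPM in 8L, with overlap. Only 16L replicate 2 (1692 CPM) lay above 8L replicate 1 (1120 CPM), and the lowest 8L sum was that of replicate 2. FKBP5 had already been named for its p in these birds. Among 15 tested steroid receptors and cochaperones, FKBP5 alone had a p under 0.05, with 7 estimates higher and 8 lower and a median of −0.08.

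The next genes by p outside the hormones encode membrane and signalling proteins, and none passed adjustment with edgeR. PEX5L, a brain protein that binds HCN channels and sets their place at the membrane, stood at 20.3, 36.8, 26.3, 18.7 and 30.7 CPM in 16L and at 8.14, 0, 5.45, 0 and 4.37 CPM in 8L (log2 fold change 2.51 ± 0.55, adjusted p = 0.525). SDC1, the heparan sulfate proteoglycan syndecan 1 of cell surfaces, stood at 47.4, 32.8, 45, 15.6 and 19.6 CPM in 16L and at 9.89, 6.95, 9.08, 1.33 and 6.55 CPM in 8L (2.19 ± 0.50, adjusted p = 0.525). MYLK, the calmodulin-dependent kinase of myosin light chains, stood at 114, 146, 106, 120 and 197 CPM in 16L and at 65.7, 62.6, 53.6, 27.9 and 48.8 CPM in 8L (1.41 ± 0.32, adjusted p = 0.525). In none of the 3 genes did a bird of one group overlap the other as measured. For PEX5L the 0 of 8L replicate 2 allows up to 20.9 CPM, more than 16L replicates 1 and 4 had. For SDC1 the 6.95 CPM of that library is 1 count. SDC1, which has a single transcript, had an adjusted p of 0.0260 when each gene was represented by its most counted transcript and 4362 genes were tested. DESeq2 called all 3, with adjusted p-values of 0.00671, 0.0254 and 0.0234.

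NELL2, a secreted protein of neurons and neuroendocrine cells, had 39.9 to 74.9 CPM in 16L and 18.6 to 34.8 in 8L, the highest of these being the shallow replicate 2. Its log2 fold change was 1.34 ± 0.33 (adjusted p = 0.766 with edgeR, 0.0295 with DESeq2). SLITRK4, a neuronal adhesion protein of synapses, had 19.7 to 42.1 CPM against 6.95 to 15.9 (1.51 ± 0.37). MXRA7, a matrix remodelling associated protein, had 85.3 to 222 CPM against 0 to 56 (1.76 ± 0.47; adjusted p = 0.982 with edgeR, 0.0350 with DESeq2). These 3 genes also had groups that did not overlap.

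The other genes with a higher estimate at p under 0.01 can be grouped by what they are known to do, a grouping made after their values were seen. Transcriptional regulators were ETV5, an ETS factor (137 ± 47.7 CPM against 61.2 ± 17.8, SD, n = 5), TLE1, a Groucho corepressor (122 ± 75.8 against 35.2 ± 23.2), TEAD3, a factor of the Hippo pathway (34 ± 14.8 against 11.4 ± 3.56), SP4, a GC-box factor of the Sp family (20.4 ± 5.75 against 9.17 ± 3.54), and MIER2, a partner of histone deacetylases (16.8 ± 5.19 against 3.66 ± 3.36). Every 16L bird lay above every 8L bird in ETV5, TLE1, SP4 and MIER2, and not in TEAD3. For MIER2 the 0 of 8L replicate 2 allows up to 20.9 CPM, more than the lowest 16L bird had (11.3 CPM). Their log2 fold changes ran from 1.19 to 1.95 and their adjusted p-values were 0.803 or more.

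Adhesion and surface proteins were PCDH9, a protocadherin (296 ± 114 CPM against 147 ± 27.8), CNTN5, a contactin of neurons (33.4 ± 16.4 against 11.4 ± 5.70), and ADGRG1, an adhesion G protein-coupled receptor (18.2 ± 5.54 against 6.17 ± 3.7). Proteins of the cytoskeleton and its control were CAMSAP2, which binds minus ends of microtubules (49.8 ± 8.31 against 26.1 ± 2.89) and RHOG, a small GTPase that acts on actin (50.6 ± 20.3 against 13.7 ± 14.1). CAMSAP2 had the smallest log2 fold change of the 37 genes named here with a higher estimate, 0.93 ± 0.30, with little spread in either group and no overlap. In RHOG the groups overlapped.

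Kinases and other signalling proteins were DYRK2 (52.9 ± 33.7 CPM against 15.1 ± 6.56), STK24, a kinase of the germinal centre kinase family (85.2 ± 31.0 against 38.3 ± 8.07), PPP1R1C, an inhibitor of protein phosphatase 1 (81.7 ± 46.4 against 34.8 ± 12.5), and CAMKMT, which methylates calmodulin (13.4 ± 3.72 against 1.96 ± 2.72). Further genes were PAIP1, a partner of poly(A)-binding protein in translation (173 ± 77.5 against 45.2 ± 35.1), SRM, spermidine synthase (42.7 ± 11.3 against 21.6 ± 12), ANXA11, an annexin (29.0 ± 9.08 against 9.86 ± 5.88), ABCA12, a lipid transporter known from skin (26.5 ± 17.1 against 3.86 ± 3.76), and the serine proteases OVCH1 (32.2 ± 19.3 against 3.46 ± 4.76) and PRSS55 (34.7 ± 17.3 against 9.18 ± 8.57). TEX11, known from meiosis, had 38 ± 7.86 CPM against 16.0 ± 7.18. KIAA0513, TMEM87B, C20orf112 and C2H8ORF76, named here without a role, had log2 fold changes of 1.62, 1.23, 1.79 and 1.80. Of the 39 genes with a higher estimate, 13 had no count in 8L replicate 2, where a count of 0 allows up to 20.9 CPM, and 21 had groups that did not overlap.

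**Figure D4:**
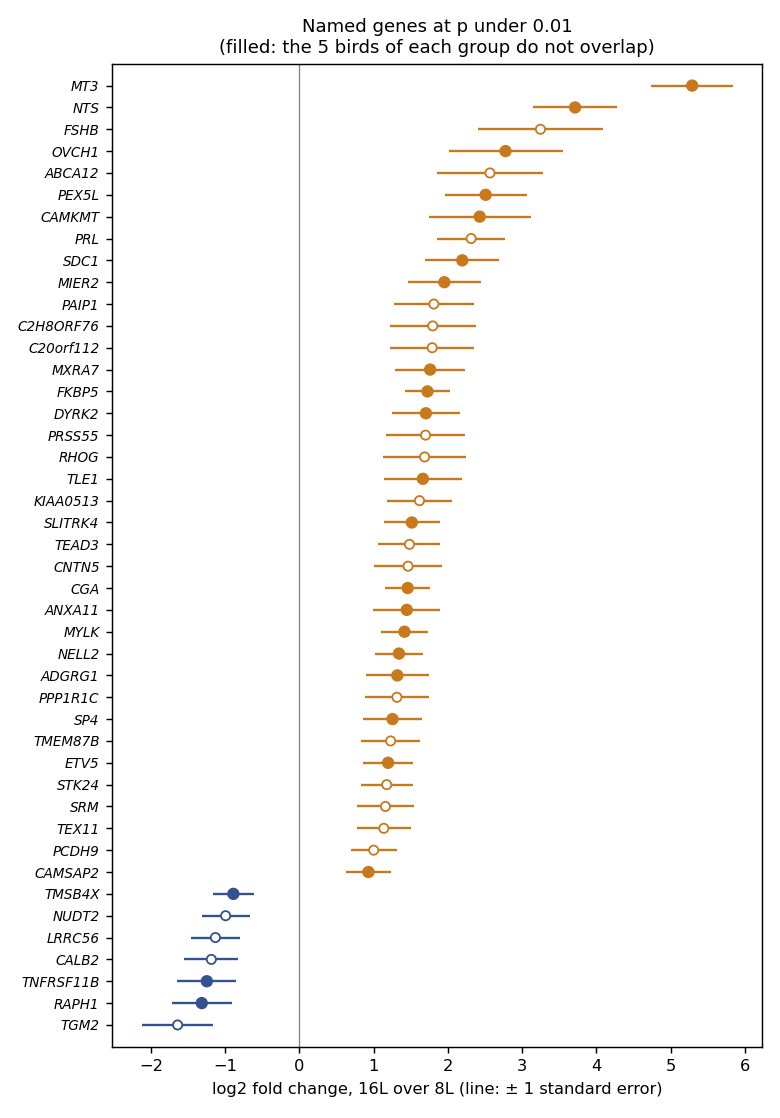
Log2 fold changes of 16L over 8L (horizontal axis, lines are ± 1 SE) of 44 genes with an annotated symbol at an unadjusted p under 0.01, ordered by size; filled points mark genes in which no bird of one group overlaps the other. The estimates above 0 run from 0.93 (CAMSAP2) to 5.29 (MT3), and the 7 below 0 from −1.64 (TGM2) to −0.89 (TMSB4X).

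Lower estimates in 16L were fewer. Of the 11 genes at p under 0.01, 7 have an annotated symbol and 4 had groups that did not overlap. The highest bird was 8L replicate 2 in 6 of the 11. TMSB4X, the actin monomer binding protein thymosin beta 4, stood at 335, 291, 455, 468 and 450 CPM in 16L and at 484, 765, 851, 1021 and 591 CPM in 8L. Its groups came close without overlapping, and the log2 fold change was −0.89 ± 0.28 (adjusted p = 0.999 with edgeR). RAPH1, lamellipodin, which carries Ena/VASP proteins to actin at the leading edge, stood at 111, 35.4, 65.3, 77.8 and 83.5 CPM in 16L and at 192, 403, 119, 119 and 131 CPM in 8L (−1.32 ± 0.41). Here 8L replicate 2 lay far above the other 8L birds. These are the only members of the actin list with a p under 0.05, among 46 tested, and 3.18% of all genes had such a p. Of the 46, 28 had a higher estimate, as had 3864 of all 7478 genes.

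TNFRSF11B, osteoprotegerin, the secreted decoy receptor of the osteoclast factor RANKL, stood at 48.9, 10.5, 43.6, 20.8 and 31.5 CPM in 16L and at 65.1, 55.6, 77.2, 83.6 and 89.5 CPM in 8L (−1.25 ± 0.40, adjusted p = 0.999 with edgeR). The 8L birds were close together and all above the 16L birds. It is also 1 of the bone and cartilage markers, whose summed level was 70.9 to 154 CPM in 16L and 170 to 192 in 8L. Without TNFRSF11B that sum was 60.4 to 123 CPM and 99 to 118, with overlap, and COL2A1, COL9A1, DMP1, IBSP, MATN1 and SP7 had no count in any bird.

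CALB2, the calcium-binding protein calretinin, had 109 ± 52.5 CPM (SD, n = 5) in 16L and 249 ± 90.6 in 8L, with overlap between 16L replicate 3 and the lower 8L birds. LRRC56 had 59.9 ± 17.8 CPM against 135 ± 48.6. NUDT2, a hydrolase of diadenosine tetraphosphate, had 51.7 ± 7.32 against 106 ± 40.0. TGM2, transglutaminase 2, had 4.24 ± 3.24 against 12.8 ± 4.94. The log2 fold changes of these 4 genes ran from −1.64 to −1, and their groups overlapped.

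Genes that set the identity and control of the hormone cells showed small differences. The 12 tested pituitary transcription factors had a median log2 fold change of 0.12. Of these, 1 that is not reported here had a p under 0.05, as had 3.18% of all genes. POU1F1, the factor of lactotrophs, somatotrophs and thyrotrophs, had 460 ± 56.7 CPM in 16L and 619 ± 124 in 8L (−0.43 ± 0.24). GATA2, a factor of gonadotrophs and thyrotrophs, had 119 ± 29.9 against 76.7 ± 34.9 (0.58 ± 0.35). None of 9 tested gonadotroph genes, 6 lactotroph genes or 5 receptors of hypothalamic hormones had a p under 0.05. The prolactin receptor PRLR had 1549 CPM in 16L and 1530 in 8L, and the steroidogenic factor NR5A1 of gonadotrophs 47.2 and 38.8. GHRHR, the receptor of growth hormone-releasing hormone, had 109 ± 76.4 CPM in 16L and 191 ± 122 in 8L. Receptors of dopamine (DRD2) and of thyrotropin-releasing hormone (TRHR) were too low to be tested.

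Secretory granule genes had estimates in both directions. Of 15 tested, 3 had a p under 0.05, against 3.18% of all genes, with a median log2 fold change of 0.22. PCSK1, the prohormone convertase that cuts POMC, had 15, 40.7, 20.3, 15.6 and 12.8 CPM in 16L and 5.81, 6.95, 9.08, 10.6 and 9.46 CPM in 8L. Its groups did not overlap, and 16L replicate 2 stood far above the rest (1.27 ± 0.43). The 6.95 CPM of 8L replicate 2 is 1 count. CHGB, chromogranin B, had 3711 ± 1120 CPM against 2138 ± 340 (0.80 ± 0.29), and SCG2, secretogranin II, 604 ± 158 against 933 ± 159 (−0.63 ± 0.27). Each had an adjusted p of 0.999 (edgeR), as had every other gene named below at an unadjusted p between 0.01 and 0.05. None of 30 tested genes of regulated exocytosis had a p under 0.05, the smallest being EXOC1 of the exocyst (51.8 ± 20.1 CPM against 91.6 ± 37.3).

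Photoperiod pathway and clock genes were read in the same way. None of 6 tested genes of thyroid hormone and photoperiod signalling had a p under 0.05. DIO2, the deiodinase that makes active thyroid hormone, had 6.77, 24.9, 28.1, 8.30 and 17.9 CPM in 16L and 55.8, 13.9, 30.0, 46.4 and 20.4 CPM in 8L (−1.0 ± 0.48), with wide overlap. The thyroid hormone receptor THRB had 310 and 315 CPM, and EYA3, a coactivator known from the pars tuberalis of long-day sheep, 77.9 and 67.0. OPN5, a photoreceptive opsin, fell below the filter with 73 counts over the 16L birds and 34 over the 8L birds. These counts are not scaled for depth, and the mean log2 library total was 20.6 in 16L and 19.5 in 8L. Of 15 clock genes none had a p under 0.05, with 8 estimates higher, 7 lower and a median of 0.01. The smallest p was that of CSNK1D, a kinase of PER proteins (36.0 ± 16.2 CPM against 17.9 ± 9.66), where 16L replicate 2 stood apart. Among MEF2 factors, MEF2D had 259 ± 77.0 CPM against 116 ± 78.7 (1.09 ± 0.52), the 8L mean including a 0 in replicate 2, and MEF2A had 383 ± 55.2 against 363 ± 136.

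In signalling lists, a few members had a p under 0.05 in lists that were centred close to 0. Of 34 genes of cyclic AMP and calcium signalling 4 had a p under 0.05, all with a higher estimate, against 1.94% of all genes higher at this p. They were CAMK2G (150 ± 37.9 CPM against 88.0 ± 21.6) and CAMK2D (457 ± 151 against 248 ± 102), chains of calcium/calmodulin-dependent kinase II, RGS7, a brake on G protein signals (122 ± 34.4 against 70.5 ± 18.3), and ITPR3, a calcium release channel of the endoplasmic reticulum (21.2 ± 8.59 against 8.45 ± 5.14). ITPR3 was the only one of the 4 without overlap, and the median of the list was 0.15. Its 0 in 8L replicate 2 allows up to 20.9 CPM, more than the lowest 16L bird had (14.5 CPM). CAMK2G, CAMK2D and RGS7 have 20, 22 and 18 listed transcripts, so their sums can count a read many times. KCNK10, a potassium leak channel, was the only one of 26 channel genes with a p under 0.05 (9.26 ± 5.27 against 24.0 ± 15.2, −1.40 ± 0.50). FSTL4, a follistatin-like protein, had 159 ± 37.8 against 97.4 ± 34.1, alone among 11 tested genes of activin, BMP and TGF-beta signalling. INSR, the insulin receptor, had 40.3 ± 13.4 against 19.1 ± 6.09, alone among 9 genes of insulin-like growth factor and growth hormone signalling. A single member such as KCNK10, FSTL4 or INSR is not read as a difference of its list, since 3.18% of all genes had such a p. The immediate early gene FOS ran from 2.56 to 55.1 CPM in 16L and from 0 to 110 in 8L.

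**Figure D5:**
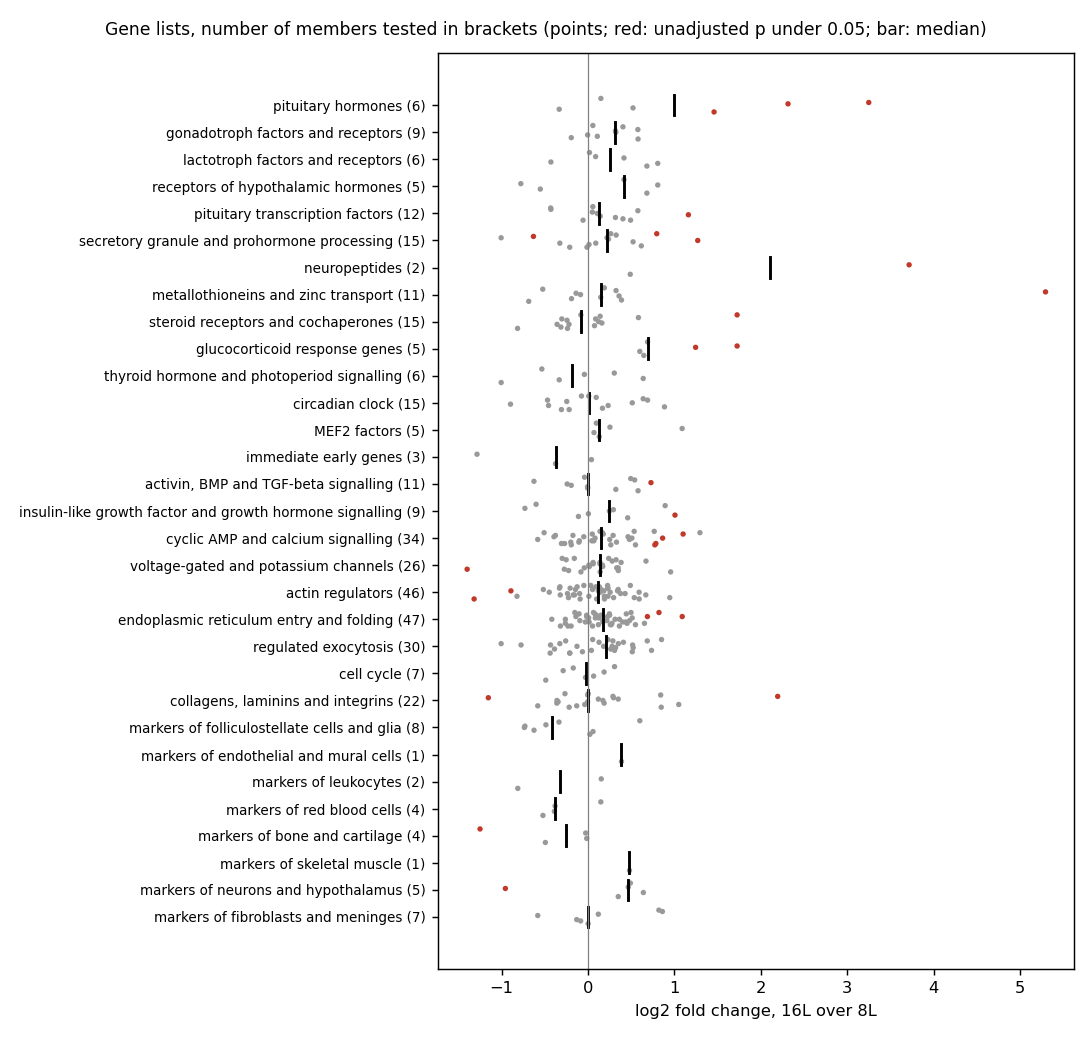
Log2 fold changes of 16L over 8L (horizontal axis) of the tested members of 31 gene lists (rows, number tested in brackets); each point is a gene, red where its unadjusted edgeR p is under 0.05, and the black bar is the list's median. Most medians lie close to 0, that of the pituitary hormones lies at 0.99, the neuropeptide list, with 2 genes, has the largest at 2.10, and MT3 and NTS are the points farthest to the right.

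Genes of protein synthesis and export had small estimates, more often higher than lower in 16L, while their sums overlapped between the groups. Of 47 tested genes of endoplasmic reticulum entry and folding, 34 had a higher estimate, against 3864 of all 7478 genes, with a median of 0.17. STT3B, a subunit of oligosaccharyltransferase, had 36.8 ± 19.1 CPM against 16.0 ± 5.81 (1.09 ± 0.41). MANF, a secreted protein induced by stress of the endoplasmic reticulum, had 129 ± 28.0 against 71.5 ± 29.8 (0.82 ± 0.33), and the chaperone HSPA5 464 ± 152 against 286 ± 111 (0.69 ± 0.32). Estimates were higher in 57 of 69 cytoplasmic ribosomal protein genes, with a median of 0.14, and in 49 of 69 nuclear genes of oxidative phosphorylation, with a median of 0.15, none of either list with a p under 0.05. Their smallest p-values were those of RPL15 (1943 ± 734 CPM against 1318 ± 394) and NDUFA1 (121 ± 39.3 against 70.5 ± 32.5). Summed in each bird, the ribosomal protein genes made up 25606 to 44151 CPM in 16L and 24644 to 41900 in 8L. The oxidative phosphorylation genes made up 4760 to 8463 CPM and 4176 to 8810. The endoplasmic reticulum list made up 3434 to 3920 CPM and 2482 to 3480, with little overlap. The genes of a list were read in the same birds, so their number adds no replicates. Of 30 proteasome genes 14 were higher, with a median of 0.00, PSMB5 having the smallest p. Cell cycle genes were mostly below the filter, and of 7 tested none had a p under 0.05 (CCND1, 16.0 ± 4.42 CPM against 21.6 ± 5.44).

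Markers of other cell types varied between birds without a difference past adjustment. Matrix genes were split, 11 higher and 11 lower of 22, with SDC1 and COL14A1, a fibril-associated collagen (37.9 ± 15.7 CPM against 80.7 ± 50.5, −1.15 ± 0.50), at p under 0.05. Among all genes tested 3.18% had such a p. Red blood cell markers summed to 561 to 2394 CPM in 16L and 902 to 2288 in 8L, where alpha globin HBA1 had 464 ± 260 and 669 ± 249. Leukocyte markers summed to 207 to 1222 CPM and 0 to 2225, nearly all of it the immunoglobulin-like gene IGLL1; without it the sums were 12.4 to 78.2 and 0 to 63.7, and CD74 of the class II complex had 8.79 ± 4.06 and 13.9 ± 8.33. Skeletal muscle markers reached 268 CPM in 16L replicate 2 and 129 in an 8L bird against medians of 17.8 and 16.4, through NEB, the giant nebulin gene with 50 listed transcripts (70.0 ± 108 CPM and 45.1 ± 58.8). The endothelial marker PECAM1 ran from 0 to 93.8 and from 0 to 72.7 CPM. Folliculostellate and glial markers summed to 202 to 259 CPM and 69.5 to 397; VIM had 19.4 ± 4.31 and 30.2 ± 19.9. Of 5 tested neuronal and hypothalamic markers, the tubulin TUBB3 alone had a p under 0.05 (8.05 ± 2.93 against 15.3 ± 5.89, −0.96 ± 0.39), 4 of the 5 having a higher estimate. PTGDS, prostaglandin D synthase of the meninges, had 153 ± 75.0 and 81.4 ± 43.1. The part of these cells in the differences between the groups was not tested.

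A few genes below the filter had groups that did not overlap and an unadjusted p under 0.001 when no filter was used. OPTC, opticin, a small leucine-rich proteoglycan known from the eye, had 126 counts over the 16L birds, at 9.03, 11.8, 14.5, 24.9 and 15.3 CPM, and 1 count over the 8L birds. The ratio of the rates was 74.9, with an exact 95% counting interval of 13.2 to 2982, and its adjusted p without a filter was 0.00608 (edgeR). ASS1, argininosuccinate synthase of arginine synthesis, had 6.82 to 18.7 CPM in 16L and 0 to 5.10 in 8L (134 and 12 counts). In the other direction, the T-box factor TBX20, known from heart, had 1.31 to 3.76 CPM in 16L and 6.95 to 22.5 in 8L (20 and 69 counts), and IL17REL, related to interleukin 17 receptors, had 1 count over the 16L birds and 40 over the 8L birds. The ratio for IL17REL was 0.0149, with a counting interval of 3.67e-04 to 0.0877. The adjusted p-values without a filter were 0.337 for ASS1, 0.274 for TBX20 and 0.126 for IL17REL. The counting intervals cover counting error only, and PCR copies are not independent molecules. OPTC has 3 listed transcripts and IL17REL 5, so a read may enter their sums more than once and the intervals may be too narrow. Since these genes were picked for groups that did not overlap, their ratios and intervals are no test of a difference. The lack of overlap rests on few counts. For TBX20 the lowest 8L value, 6.95 CPM in replicate 2, is 1 count. For IL17REL the lowest 8L bird had 1.16 CPM and the highest 16L bird 1.04. OPTC and ASS1 had no count in 8L replicate 2, where a count of 0 allows up to 20.9 CPM.

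Whether the adult differences were particular to adults was tested with the 9 juvenile libraries, taken at posthatch day 10 after 5 days in their photoperiod. By the study's methods the juveniles held both sexes while the adults were all males. The adults had 8 weeks in their photoperiod, and those under 16L came to it from short days. Age, sex, length of exposure and light history therefore cannot be told apart here. Of 7165 genes tested for an interaction of age and photoperiod none had an adjusted p under 0.05 (edgeR), 411 had an unadjusted p under 0.05 (5.74%) and 85 one under 0.01 (1.19%). DESeq2 gave 7 genes past adjustment. MT3 had the smallest interaction p, with a log2 fold change in juveniles that was lower than in adults by 6.11 ± 1.12 (SE; adjusted p = 0.124 with edgeR). In juveniles MT3 ran from 0 to 26.9 CPM in 4 birds under 16L and from 9.38 to 42.4 CPM in 5 birds under 8L, on 0 to 19 counts per bird. The interaction of MYLK was −2.55 ± 0.74 (adjusted p = 0.655) and that of SDC1 −3.43 ± 1.43 (adjusted p = 0.816). For PRL, CGA and FKBP5 it was −1.40 ± 1.06, −1.32 ± 0.91 and −1.05 ± 0.96, with adjusted p-values of 0.992 or more (edgeR). The juvenile values were uneven, on totals of 90599 to 1074137 counts. SDC1 stood at 145 and 71.5 CPM in juvenile 8L replicates 1 and 5, and at 0.797, 0 and 0 in replicates 2 to 4. MYLK was also highest in replicates 1 and 5 (206 and 366 CPM). Replicate 1 had the lowest CGA (103 CPM) and PRL (111 CPM) of the juvenile 8L birds. NTS had 1 count over the 9 juveniles, so its change with photoperiod could not be read there.

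The study's table of birds lists the adults in 2 sets, and the files do not say whether these are runs. The ratio of means was 76.0 in the first set (3 against 2 birds) and 50.4 in the second (2 against 3) for MT3, 10.3 and 13.5 for NTS, 5.47 and 4.88 for PRL, 2.62 and 2.88 for CGA, and 3.55 and 13.2 for FSHB. With the set as a term in the model, MT3 and NTS were again the 2 genes past adjustment.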

How the data were processed

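RNA from pituitary glands of 10 adult male quail (5 under 16L, 5 under 8L) was compared, with the 9 juvenile libraries used for the interaction and the fit over 4 groups. Groups follow the sample titles. Per the methods, the authors made libraries with a PCR-cDNA barcoding kit (Oxford Nanopore) and used guppy, Porechop, Filtlong, minimap2 and Salmon. Versions are not given in the sources used here. The deposited values are estimated counts per transcript, not normalized and 99.4% of them whole in adults. The 63260 transcripts were summed to 19562 symbols and rounded. No transcript ID and none of 5993 LOC symbols matched the quail annotation at hand (11430 other symbols did), so the annotation behind the counts is not known and no positions or sequences are given. In 1756 of 3073 genes with at least 2 transcripts of 100 or more counts (57.1%), the top 2 transcripts were within 5% or 1 count in all 10 libraries, as when a read is counted for each transcript it matches. Sums can thus count reads more than once, and the most counted transcripts held 42.0% to 68.1% of a library.

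The test was edgeR 4.0.16 in R 4.3.3, with limma 3.58.1 (estimateDisp, glmQLFit with legacy=TRUE, glmQLFTest) on the adults alone, with filterByExpr (minimum count 10, minimum total 15), TMM factors and Benjamini-Hochberg adjustment over all genes tested. Unadjusted p under 0.01 follows the study. Standard errors derive from the F statistic. CPM are relative to the effective library sizes of this fit. Library totals and the share of gene copies (within 5% in every library, total of 10000 or more) were compared by exact permutation. Nothing says how separate the birds' housing was, so p-values measure the spread between birds. Totals of 128509 to 4796665 counts set the precision, and intervals and limits from 3 counts cover counting error only.

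Named are all genes with an annotated symbol at p under 0.01, pituitary hormones and genes that the study names, in each of 34 lists up to 4 members at p under 0.05 or else the 1 with the smallest p, and up to 3 genes on each side below the filter. A few genes that these rules take are not reported here. Others were chosen after their values were seen. The rule for members, the lists and the named genes were chosen with earlier results on these birds known. Other settings tried were upper-quartile or RLE factors, DESeq2 1.42.0, limma-voom, legacy=FALSE, no filter, a filter asking for 10 counts in each library of either group, a replicate block, 4 groups in 1 fit, no gene copies, copies within 10%, no library under 200000 counts, set of birds, a log2 fold change over 1, adjusted p under 0.2 and each library left out. The most counted transcript, and leaving out 8L replicate 2 and 16L replicate 2 together, were added after seeing the data. Tables were read with version 1.17.8 of the data.table package, and figures used Python 3.11.15, pandas 2.3.3, numpy 2.4.6 and matplotlib 3.10.9.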

Additional observations from a re-analysis of the deposited data

Results flagged for a closer look

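In 12 of 168 groups of 5 birds examined, 1 bird lay outside the others by Dixon's criterion (critical value 0.710), which chance passes in about 1 in 20 groups. The library total of 16L replicate 3, 4796665 counts, was 1 of these. MT3 reached 580 CPM in 16L replicate 5, and MXRA7 reached 222 CPM in 16L replicate 4. GHRHR stood at 241 CPM in 16L replicate 3. In 16L replicate 2, the library with the largest share of gene copies, PCSK1 stood at 40.7, CSNK1D at 64.3, FOS at 55.1 and KCNK10 at 18.4 CPM. KCNK10 also stood at 50.4 CPM in 8L replicate 4, so that its 2 outlying birds are the highest of their groups. In 8L replicate 2, the library with the fewest counts, NELL2 stood at 34.8 and RAPH1 at 403 CPM, which rest on 5 and 58 counts. HSPA5 stood at 476 CPM in 8L replicate 1.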

How the results depend on the processing

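The number of genes at p under 0.01, 50 of 7478 tested as reported, was 97 of 7478 with DESeq2 and 210 of 19028 without a filter. It was 14 of 7165 with all 4 groups in 1 fit and 78 of 7988 without libraries under 200000 counts (8L replicate 2). With each library left out it was 44 to 78, of 7639 to 7988 genes tested. The 2 genes past adjustment became 12 with DESeq2, 5 without a filter, 4 with the most counted transcript of each gene, 1 with limma-voom, 1 with all 4 groups in 1 fit and 1 to 4 with each library left out. With the replicate block 1 gene passed adjustment and 37 had p under 0.01. Birds with the same number did not deviate together (correlations of −0.0281 to 0.0914, none best with its own number). No pairing by number was seen in the counts, but such correlations cannot exclude that birds were handled in pairs. The interaction, 0 genes as reported, gave 7 with DESeq2 and 0 to 3 with each library left out. Signs turned in 5 genes. Log2 fold changes with each library left out ran from −0.0896 to 0.286 in MEF2A, −0.576 to 0.0030 in TSHB, −0.0811 to 0.447 in POMC, −0.0645 to 0.934 in PECAM1 and −1.01 to 1.07 in NEB. MEF2A had −0.0032 with the most counted transcript, POMC −0.0811 without libraries under 200000 counts and −0.0964 without both doubtful libraries, PECAM1 −0.907 with limma-voom and −0.114 without both, and NEB −1.66 with limma-voom, −0.116 with the replicate block and −1.23 without both. The causes were not tested. Over 82 genes, 1889 of 1927 values under alternatives kept their direction and side of the threshold. Only 2 of these genes, MT3 and NTS, passed adjustment as reported, so for the others the same side means not passing. Many of the 82 were named for a small p in these birds, so this number is no measure of how well the differences hold. Depth limits the low genes most, since 1 count in 8L replicate 2 is worth 6.95 CPM.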
